A study of Mus musculus with 30 samples.

Results

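The genes described are 35 genes of the lysosome, taken from a list of symbols: the receptor-associated protein gene Lrpap1, the sorting receptor M6pr, lysosomal membrane proteins, cathepsins and other peptidases, glycosidases, sulfatases and lipases, lipid transfer proteins, subunits of the proton pump, and the transcription factors Tfeb and Tfe3. All 35 were found among the 55401 gene identifiers of the count table, and 30 were among the 9567 genes with enough counts to test. The members are given by symbol, with no threshold on their expression. The cells are an Eµ-Myc; p19ARF -/- mouse line, a B cell lymphoma that carries the Eµ-Myc transgene, which drives Myc from the immunoglobulin heavy chain enhancer, and lacks the tumour suppressor p19ARF. Both features are shared by every line, so no line without the transgene was compared. Cultures of the parental line had been put through repeated cycles of paclitaxel, a drug that stabilises microtubules, and recovery (17 lines labelled paclitaxel) or through the same cycles with the solvent DMSO (12 lines labelled DMSO), and the parental line itself was sequenced (1 library). Each line is 1 separately cultured population and gave 1 3′-end digital gene expression library, which counts reads near the 3′ end of each transcript. The question is which lysosome genes differ between lines that became resistant to paclitaxel and lines that were only cultured as long.

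Lysosomes are the acidic compartments in which cells break down proteins, glycans and lipids. Most soluble hydrolases receive a mannose 6-phosphate tag in the Golgi and are carried onward by the mannose 6-phosphate receptors, of which M6pr encodes the cation-dependent and Igf2r the cation-independent one, while the V-ATPase pumps in the protons that the enzymes need. TFEB and TFE3 are transcription factors that bind the CLEAR element, built around the letters CACGTG, in the promoters of many lysosome genes. The protein of Lrpap1, known as RAP, is a chaperone of the endoplasmic reticulum that keeps large endocytic receptors such as LRP1 from binding their ligands before they reach the surface.

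Before the comparison, 3 libraries were set aside, since the expression of 2 went against their labels and the place of the third depends on theirs. The 3 genes with the lowest p between the remaining groups, Zfp979, Maoa and Lipo3, were at 20.5 to 45.5, 31.9 to 74.5 and 10.3 to 26.8 normalized CPM, the count scaled to the size of its library, in the lines labelled DMSO 1 to DMSO 11 and at most at 0.645, 1.003 and 2.09 CPM in those labelled Pac A6 to Pac H8. The library labelled DMSO 12 had 0, 2.03 and 0 CPM of them, and the library labelled Pac H9 had 16.3, 17.2 and 20.8 CPM. The first was thus below every DMSO line for all 3 genes, and above the resistant lines for Maoa alone, and the second was above all resistant lines for all 3 and below every DMSO line for Zfp979 and Maoa. The library labelled Parental had 30.4, 48.2 and 15.5 CPM, inside the range of the DMSO lines. The positions of the named lines in the study's own transcriptome plot differ from the labels in a way that a move of every label from DMSO 12 on by 1 library would give. Under either reading the 11 libraries DMSO 1 to DMSO 11 are DMSO control and the 16 libraries Pac A6 to Pac H8 are paclitaxel resistant, so these 27 were compared, and a line name below is the name on the library. The libraries labelled DMSO 12, Pac H9 and Parental are given beside the results without a group. Totals of the 30 libraries ran from 480919 counts (Pac C1) to 6739131 (DMSO 11). All 12 B cell markers were detected, at a summed 6824 to 10990.1 CPM in DMSO lines and 4851 to 11786 CPM in paclitaxel resistant lines, and Cd79b, a signalling chain of the B cell receptor, fell in the resistant lines (log2 fold change -0.70, adjusted p = 0.00837 by edgeR's quasi-likelihood test). Markers of macrophages, which are rich in lysosomes, summed to 7.96 to 42.2 CPM in DMSO lines and 11.3 to 66.5 CPM in resistant lines. Of this list Adgre1, C1qa, C1qb, C1qc and Marco were at 0 in all 30 libraries. Itgam, Cd68 and Mrc1 reached 27.9, 9.93 and 20.6 CPM in DMSO lines. In resistant lines these 3 genes reached 50.6, 46.8 and 11.1 CPM. T cell markers summed to 9.10 to 115 CPM and 13.4 to 116 CPM, with Cd3e and Cd4 at 0 throughout. Il7r, the highest of them, reached 113 CPM in DMSO and 94.8 CPM in resistant lines, and Lck 11.8 and 14.9 CPM. The fibroblast list reached at most 0.524 CPM in any line compared, with Col3a1, Dcn and Lum at 0.

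The promoter stretches of the genes that the comparison turns on are shown first, 5′ to 3′ on the gene's strand, in lower case with each TCACGTGA in capitals, from RefSeq promoter windows on GRCm38.p6. They end before the first annotated base of the gene. Lrpap1 lies at chr5:35091501-35105766 on the minus strand, and the stretch covers chr5:35105767-35105949. Idua lies at chr5:108660331-108684557 on the plus strand, and the stretch covers chr5:108660081-108660330. Both are shown because these were the members called, and neither holds CACGTG. Igf2r lies at chr17:12682406-12769664 on the minus strand, and the stretch covers chr17:12769707-12769956 with 2 copies of TCACGTGA. The stretch of Gla, chrX:134601210-134601249 on the minus strand, is shown as a member with this element upstream that did not pass the test.
Lrpap1: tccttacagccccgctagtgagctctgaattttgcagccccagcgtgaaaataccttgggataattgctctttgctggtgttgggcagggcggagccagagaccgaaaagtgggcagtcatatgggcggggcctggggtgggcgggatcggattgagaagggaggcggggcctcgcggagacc
Idua: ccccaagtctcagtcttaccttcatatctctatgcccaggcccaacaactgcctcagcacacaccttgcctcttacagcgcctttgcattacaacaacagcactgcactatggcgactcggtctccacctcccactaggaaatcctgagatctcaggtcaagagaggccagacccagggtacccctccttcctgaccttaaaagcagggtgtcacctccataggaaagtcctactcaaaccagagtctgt
Igf2r: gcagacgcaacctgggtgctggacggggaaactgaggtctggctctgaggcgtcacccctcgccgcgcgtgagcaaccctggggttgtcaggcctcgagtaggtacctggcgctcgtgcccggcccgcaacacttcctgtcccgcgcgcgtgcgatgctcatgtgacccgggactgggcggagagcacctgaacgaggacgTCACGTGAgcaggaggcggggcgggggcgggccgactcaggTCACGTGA
Gla: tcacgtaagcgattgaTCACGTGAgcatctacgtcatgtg

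Lrpap1 and Idua rose in the paclitaxel resistant lines, and no member was called lower, though 14 of the 30 tested had a negative log2 fold change. They were the 2 of 30 tested members with an adjusted p under 0.01 in edgeR's quasi-likelihood test, where the adjustment ran over all 9567 genes. Among all tested genes 321 were called (3.36%), of which 158 were higher in the resistant lines (1.65%) and 163 lower (1.70%). At an unadjusted p under 0.05 there were 7 members (23.3%, beside 25.5% of all genes), with Ctsh and Lipa the ones on the lower side, and DESeq2 also called 0 members lower. Since 2 calls among 30 is a small number and the members were chosen with earlier results known, nothing is read from the difference of these shares. Without TMM factors, which correct for differences in RNA composition, the split was 300 higher to 141 lower and the median log2 fold change of all genes moved from 0.07 to 0.20, and the members called did not change. With all 29 treated libraries under their deposited labels 208 of 9445 genes were called (2.20%) and Lrpap1 was the only member among them. When every label from DMSO 12 onwards was moved along by 1 library, 373 of 9444 genes were called (3.95%), again with Lrpap1 and Idua. The median log2 fold change of the members was 0.03, beside 0.07 for all genes tested, and 23 of 30 members (76.7%) lay within 0.5 of 0 on the log2 scale, beside 73.6% of all genes. The plot of fitted fold changes has Idua, Gaa and Lrpap1 apart from the rest at the upper end.

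**Figure D1:**
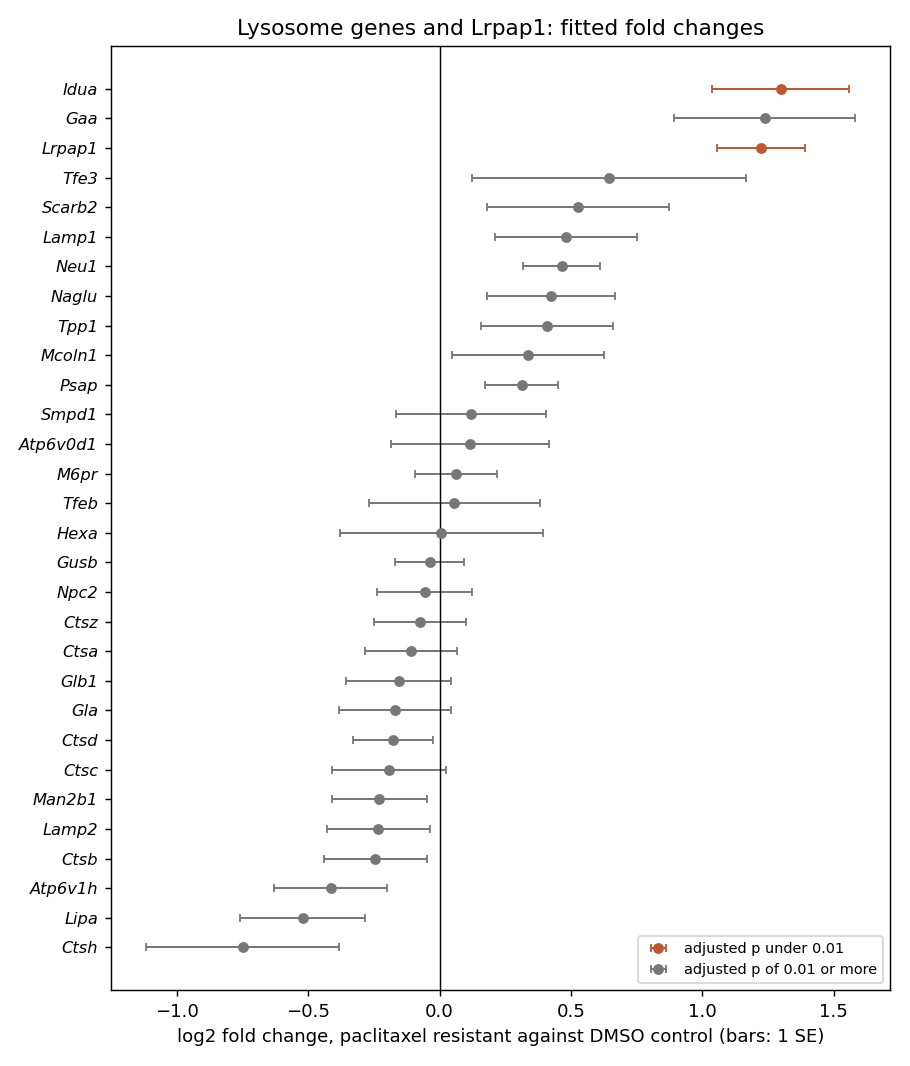
Fitted log2 fold changes of the 30 tested members in 16 paclitaxel resistant against 11 DMSO control lines, with bars of 1 standard error. Lrpap1 and Idua (coloured) passed an adjusted p of 0.01. Gaa has a similar fold change and a larger error, and Ctsh is the lowest at -0.75.

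Lrpap1 (ENSMUSG00000029103.16) rose 2.34-fold (log2 fold change 1.22, SE 0.169, adjusted p = 1.85e-05 by edgeR's quasi-likelihood test, n = 11 and 16). It was at 18.6 CPM in the lowest DMSO line, 29.5 in the median and 49.6 in the highest, DMSO 6. In the resistant lines it ran from 43.2 (A6) over a median of 66.6 to 135 CPM (C3). The groups overlapped only through DMSO 6, since 14 of 16 resistant lines were above every DMSO line and the other 2, A6 and D10 at 43.2 and 43.4 CPM, were above all DMSO lines but that one. The next highest DMSO line, DMSO 10, had 36.9 CPM. Libraries outside the groups had 49.6 CPM (labelled DMSO 12), 56.2 (labelled Pac H9) and 36.3 (labelled Parental). Every library held at least 31 counts of Lrpap1. The call stood in each of the 27 fits that left out 1 library, at log2 fold changes of 1.14 to 1.32.

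Of the 7 tested genes within 0.5 Mb of Lrpap1 on either side, none was called higher. Mfsd10, a transporter gene, fell (log2 fold change -1.96, SE 0.480, adjusted p = 0.00883 by edgeR's quasi-likelihood test). The nearest tested gene on one side, Htt, the gene of huntingtin, had a log2 fold change of 0.85 (adjusted p = 0.0534), and on the other side 4930478P22Rik had 1.46 (SE 0.604, adjusted p = 0.122). Acox3, a peroxisomal oxidase, had 0.89, Add1 0.39, Nop14 0.37 and Trmt44 0.13, with adjusted p from 0.0863 for Acox3 to 0.879 for Trmt44.

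Several receptors that RAP is known to chaperone were at or near 0. Vldlr and Lrp2 had no count in any of the 30 libraries, and Lrp1, the large endocytic receptor after which RAP is named, had 4 counts in all. Lrp8, the ApoE receptor of neurons, had 59 counts. Mesd, another chaperone of such receptors, had a log2 fold change of -0.17, and Sorl1, a sorting receptor, 0.03 with an SE of 0.532.

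**Figure D2:**
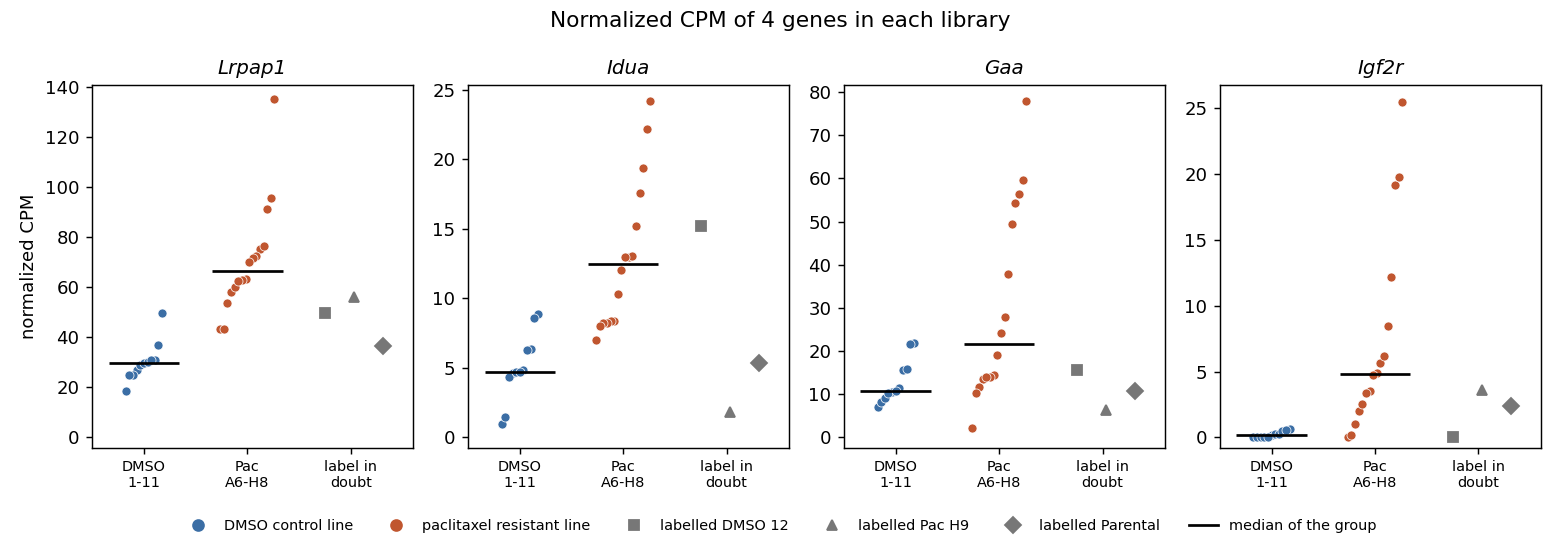
Normalized CPM (TMM factors) of Lrpap1, Idua, Gaa and Igf2r, 1 point per library, with the group median as a line; grey symbols are the 3 libraries whose label is in doubt. Lrpap1 in 14 and Idua in 10 of 16 resistant lines lie above every DMSO line, Gaa is split among the resistant lines, and Igf2r is at or under 0.617 CPM in all 11 DMSO lines.

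Among the carriers that bring enzymes to the lysosome, M6pr did not pass the test. It ran from 158 (DMSO 11) over 217 to 271 CPM in the DMSO lines and from 113 (F10) over 236 to 332 CPM (E1) in the resistant lines (log2 fold change 0.06, SE 0.155, adjusted p = 0.830 by edgeR's quasi-likelihood test). The resistant lines spread to both sides, with 6 above every DMSO line and 4 below. The interval of 2 SE around the log2 fold change ran from -0.25 to 0.37. Igf2r (ENSMUSG00000023830.14), the other mannose 6-phosphate receptor, rose from near 0. The 11 DMSO libraries held 11 counts of it in all, at most 4 in one library, and the 16 resistant libraries held 512. Its level was 0 to 0.617 CPM in DMSO lines and 0 to 25.5 CPM in resistant lines, with F10, D7 (19.8), C11 (19.2) and D4 (12.2) highest and C1 at 0 (log2 fold change 4.83, SE 0.681, adjusted p = 2.30e-05 by edgeR's quasi-likelihood test). Igf2r passed the filter on low counts through 11 resistant libraries and 0 DMSO libraries, which is the number the filter asks for, so a gene of this kind could be tested only because it was higher there, and the size of the fold rests on 11 control counts. Airn, the non-coding RNA that overlaps Igf2r on the opposite strand, had a log2 fold change of 0.00 (SE 0.366). Whether the counting used strand is not given in the sources used here, so reads of the overlap cannot be assigned to one of the pair with certainty. The rest of the sorting list, 29 tested genes of adaptors, clathrin, retromer and tethering complexes, had no call. The list's median was -0.01, and 10 of its 30 genes, Igf2r among them, had an unadjusted p under 0.05 (33.3%, beside 25.5% of all genes).

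Idua (ENSMUSG00000033540.18), the iduronidase that breaks down heparan and dermatan sulfate, rose 2.46-fold (log2 fold change 1.30, SE 0.261, adjusted p = 0.00171 by edgeR's quasi-likelihood test). The DMSO lines had 0.993 (DMSO 9) over 4.70 to 8.84 CPM (DMSO 3), and the resistant lines 6.99 (H3) over 12.5 to 24.2 CPM (C11). Of the resistant lines, 10 of 16 were above every DMSO line and none was below. Depth is low here: DMSO 9 held 1 count and Pac C1 held 4. The library labelled DMSO 12 had 15.2 CPM, above all 11 DMSO lines, and that labelled Pac H9 had 1.81 CPM, below all 16 resistant lines. With these placed as labelled, the log2 fold change was 1.06 and the call was lost (adjusted p = 0.0240 by edgeR's quasi-likelihood test). Dgkq and Slc26a1 overlap Idua on the opposite strand and held 6 and 2 counts in all libraries.

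Among other enzymes of the same pathway, Hgsnat, Naglu and Gusb were not called. Hgsnat, which acetylates heparan sulfate during its breakdown, had a log2 fold change of 0.98 (SE 0.356, adjusted p = 0.0776). Naglu, another enzyme of heparan sulfate breakdown, had a log2 fold change of 0.42 (adjusted p = 0.274) and Gusb, the glucuronidase, -0.04 (adjusted p = 0.887). Ids and Sgsh, sulfatases of the pathway, were too low to test, with 125 and 112 counts in all libraries and medians of 0.699 and 0.569 CPM in the DMSO lines.

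Gaa, the acid glucosidase that degrades glycogen, had a fold change close to those of the called members but split the resistant lines. It was at 7.12 over 10.9 to 21.9 CPM in the DMSO lines. Among the resistant lines D4 (77.9), C11 (59.6), C3 (56.4), F10 (54.3), D7 (49.5) and G9 (37.8) were highest, and 8 of 16 lines were above every DMSO line. C1 had 2.09 CPM, below all DMSO lines, but from 1 count in the smallest library. The log2 fold change was 1.24 (SE 0.344) and missed the threshold at an adjusted p of 0.0205 by edgeR's quasi-likelihood test. It passed with edgeR's likelihood ratio test, with DESeq2, after thinning to equal depth and without Pac C1, at log2 fold changes of 1.23 to 1.74. Neu1, the sialidase, was at 27.4 over 40.3 to 58.7 CPM in DMSO lines and 38.2 over 53.0 to 85.8 CPM in resistant lines, with 7 of 16 above every DMSO line (log2 fold change 0.46, SE 0.148, adjusted p = 0.0432). The remaining glycosidases, Gla, Glb1 and Man2b1, had log2 fold changes of -0.23 to -0.16 with standard errors of 0.181 to 0.213, and Lipa, the acid lipase, had -0.52 (adjusted p = 0.162) with 8 of 16 resistant lines below every DMSO line. Smpd1, the acid sphingomyelinase, was at 0.12 (SE 0.286).

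Hexa, the alpha subunit of hexosaminidase A, had no shift in its mean and was nearly absent from 3 resistant lines. E1 had 1.88 CPM, D7 1.98 and C3 5.12, from 8, 7 and 6 counts, while the other 13 resistant lines had 33.4 to 115 CPM and the DMSO lines 26.2 to 94.7 CPM. The fitted log2 fold change of 0.01 carried an SE of 0.387, the largest of the tested glycosidases, sulfatases and lipases. The tested genes on both sides of Hexa on chromosome 9 were not reduced in the same way: Arih1, the nearest protein-coding gene tested upstream, had 22.6 to 40.4 CPM in these 3 lines and 21.7 to 91.3 CPM in the other 13, and Parp6, downstream, had 2.56 to 14.7 CPM against 2.09 to 25.7 CPM. Ctsl, the cathepsin L gene, was too low to test at 275 counts in all libraries. Its highest lines were E1 (18.6 CPM, 79 counts), D7 (11.0 CPM, 39 counts) and C3 (6.83 CPM, 8 counts), which are the lines low in Hexa. C1, not low in Hexa at 33.4 CPM, was close to C3 at 6.26 CPM from 3 counts. The match was seen after the values were known.

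**Figure D3:**
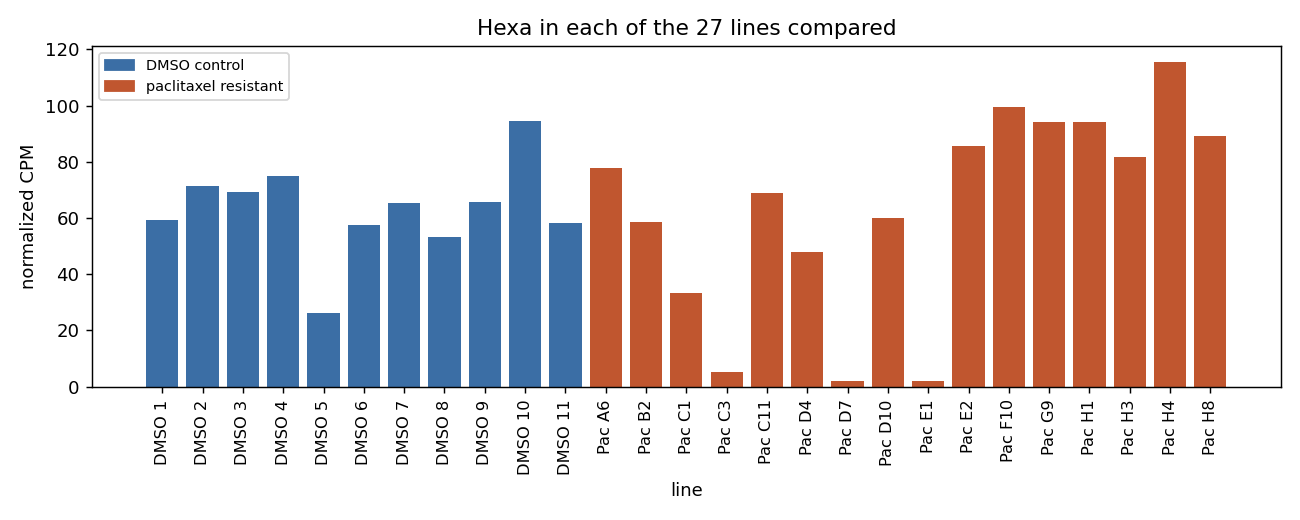
Normalized CPM of Hexa in the 11 DMSO control and 16 paclitaxel resistant lines, 1 bar per library. Pac C3, Pac D7 and Pac E1 are at 5.12, 1.98 and 1.88 CPM, and each other resistant line is at 33.4 CPM or more.

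The cathepsins and peptidases had no call by edgeR's quasi-likelihood test, and 1, Ctsh, had an unadjusted p under 0.05. Of 7 tested, Ctsa, Ctsb, Ctsc, Ctsd, Ctsh and Ctsz had log2 fold changes of -0.75 to -0.07 and Tpp1, a tripeptidyl peptidase, 0.41 (adjusted p = 0.307), and the group's median was -0.18, beside 0.07 for all genes, of which 4235 of 9567 were negative. Without TMM factors Ctsa and Ctsz turned positive, at 0.00964 and 0.0516. Ctsd, the aspartic protease cathepsin D, had 115 over 197 to 347 CPM in DMSO lines and 114 over 184 to 274 CPM in resistant lines (log2 fold change -0.18, SE 0.153, adjusted p = 0.482 by edgeR's quasi-likelihood test). None of the resistant lines exceeded the highest DMSO line, DMSO 9, and C11 was below the lowest, DMSO 11. Ctsh, an aminopeptidase, was the most variable, at 28.7 to 298 CPM in DMSO lines and 18.2 to 241 CPM in resistant lines (log2 fold change -0.75, SE 0.367, adjusted p = 0.195).

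Lamp1, a heavily glycosylated protein of the lysosomal membrane, was at 11.1 (DMSO 5) over 19.003 to 39.3 CPM (DMSO 11) in DMSO lines and at 11.4 (D10) over 21.6 to 65.3 CPM (F10) in resistant lines. Only F10, C11 (56.8), D4 (52.3) and D7 (42.1) were above every DMSO line, and the log2 fold change of 0.48 (SE 0.270) had an adjusted p of 0.261 by edgeR's quasi-likelihood test. Scarb2, the membrane protein that carries glucocerebrosidase, had 0.53 (SE 0.345) and the calcium channel Mcoln1 0.34 (SE 0.289). Lamp2 had -0.23 (SE 0.195), with 200 CPM as the median of resistant lines and 229 CPM as that of DMSO lines.

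Lamp1, Scarb2 and the pump subunit Atp6v0d1 had their highest resistant lines in common. On the first principal component of all 30 libraries, which used every tested gene, the widest gap among the 16 resistant lines set 6 apart, A6, C11, D4, D7, F10 and G9, at -89.9 to -44.7, from the other 10 at 4.66 to 65.5. One control, DMSO 11, lay with them at -55.5, while DMSO 1 to DMSO 10 lay at -1.38 to 31.2. These 6 libraries also had the highest TMM factors of the 30, 1.099 to 1.26, followed by DMSO 11 at 1.03, with every other library at 1.01 or less, so they stand apart in RNA composition, and the part of this in the values below was not tested beyond a change of scaling. Lamp1 was at 32.6 to 65.3 CPM in the 6 lines, 39.3 CPM in DMSO 11, 11.4 to 25.9 CPM in the other 10 resistant lines and at most 27.97 CPM in the other DMSO lines. Scarb2 had 24.9 to 54.0 CPM in the 6 lines, 27.5 in DMSO 11, 4.19 to 22.2 in the other 10 and at most 20.97 in the other DMSO lines. For Atp6v0d1, which belongs to the membrane part of the pump, the values were 18.8 to 41.8 CPM in the 6, 33.8 in DMSO 11, 5.16 to 15.7 in the other 10 and at most 20.4 in the other DMSO lines. Each of the 3 genes was thus higher in DMSO 11 and in the 6 lines than in any other resistant line. Neu1 was likewise at 66.7 to 85.8 CPM in the 6 lines and 38.2 to 61.2 in the other 10, but at 40.9 CPM in DMSO 11. Scaled by library totals without TMM factors, the 6 highest resistant lines for each of these 4 genes were still these 6.

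The opposite order held with TMM factors for Ctsc, the dipeptidyl peptidase that activates granule proteases. It was at 61.7 to 173 CPM in the 6 lines and 139 CPM in DMSO 11, and at 186 to 388 CPM in the other 10 resistant lines and at least 204 CPM in the other DMSO lines. Without TMM factors the groups of lines overlapped, at 76.9 to 203 CPM in the 6 and 182 to 369 CPM in the other 10. M6pr and Lamp2 tended the same way, with medians of 152 and 106 CPM in the 6 lines and 261 and 206 CPM in the other 10, though G9 had 283 CPM of M6pr. In all, the 6 highest resistant lines were exactly these 6 for 4 of 30 members (13.3%), beside 5.85% of all tested genes, and the 6 lowest were these 6 for 1 member (3.33%), beside 3.85%. With at least 5 of the 6 highest in the subset the order turned, at 16.7% of members beside 20.2% of all genes, and DMSO 11 was the highest DMSO line for 23.3% of members beside 28.3% of all genes, and the lowest for 36.7% beside 22.7%. These values are a description: the component was computed from all genes, the members among them, and the subset was noticed with the values in view. Lrpap1 did not divide the lines in this way, at 43.2 to 91.4 CPM in the 6 and 43.4 to 135 CPM in the other 10.

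**Figure D4:**
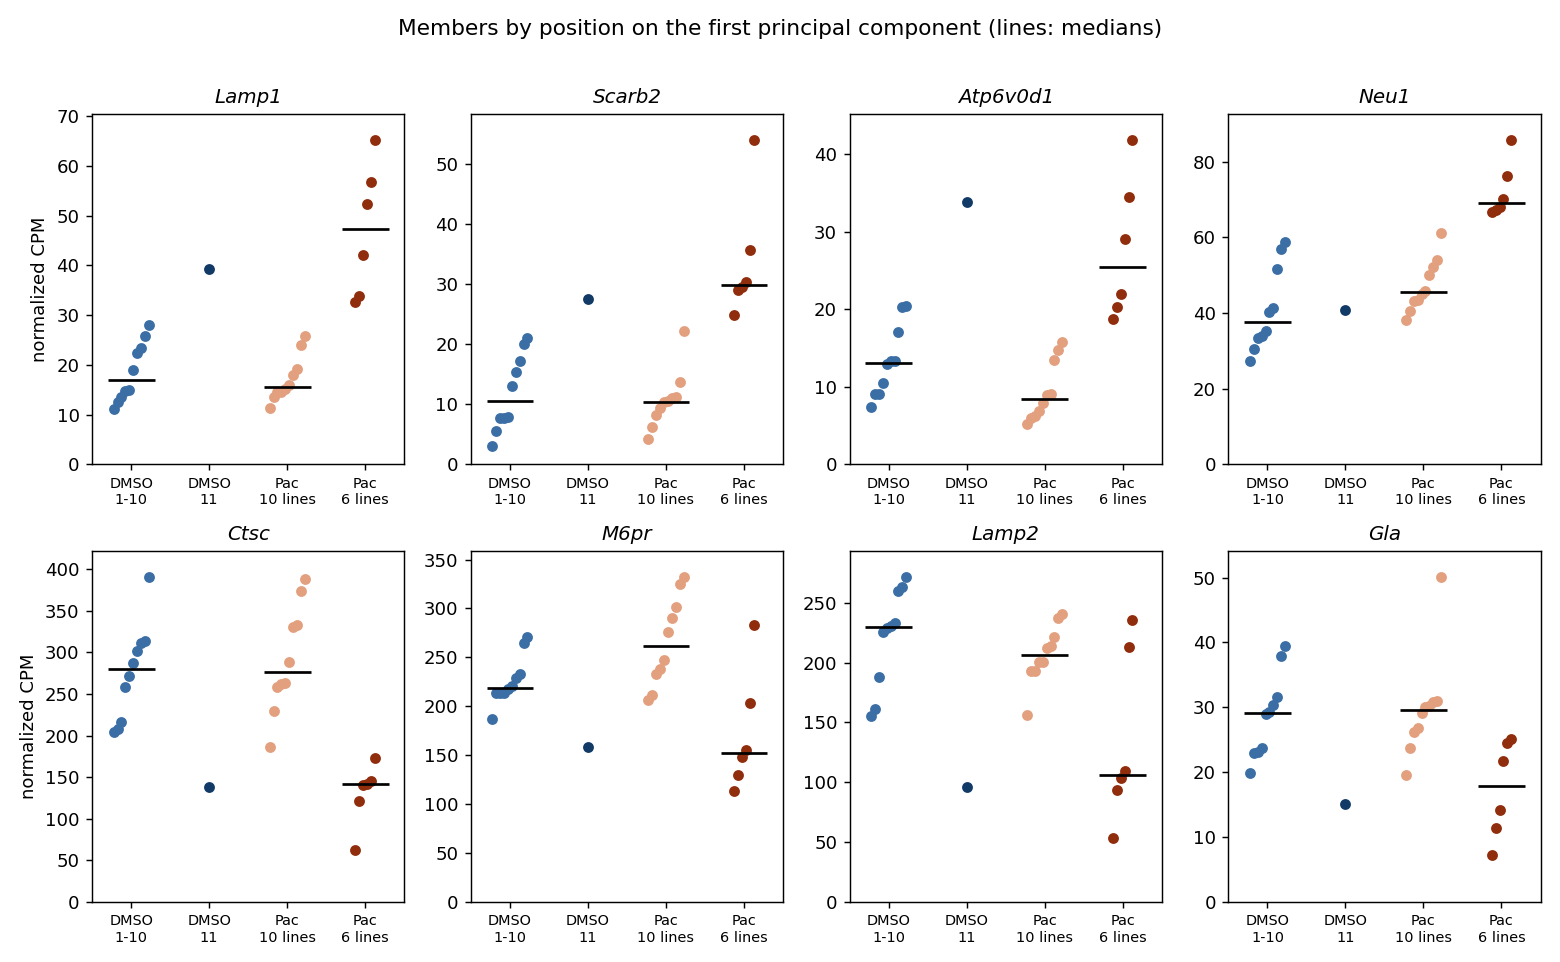
Normalized CPM of 8 members in DMSO 1 to DMSO 10, in DMSO 11, and in the paclitaxel resistant lines on either side of the widest gap on the first principal component (10 and 6 lines), 1 point per library with group medians. Lamp1, Scarb2 and Atp6v0d1 are higher and Ctsc, which overlaps when scaled without TMM factors, is lower in DMSO 11 and the 6 lines than in the 10 lines, Neu1 is higher in the 6 lines alone, and M6pr, Lamp2 and Gla overlap.

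For the proton pump, the 2 members did not pass the test. Atp6v0d1 had a log2 fold change of 0.12 (SE 0.301), and Atp6v1h, a regulatory subunit of the cytosolic part, had -0.41 (SE 0.214, adjusted p = 0.219) with 8 of 16 resistant lines below every DMSO line. Of 14 further subunits tested, 1 was called: Atp6ap1, an accessory subunit, fell from 121 over 202 to 275 CPM in the DMSO lines to 62.2 over 134 to 182 CPM in the resistant lines (log2 fold change -0.70, SE 0.162, adjusted p = 0.00560 by edgeR's quasi-likelihood test). With all 29 libraries as labelled its log2 fold change was -0.62 and its adjusted p 0.0128 by the same test. The call was also lost in 4 of the 27 fits that left out 1 library, which ranged from -0.76 to -0.65. The median of these 14 was -0.25, beside 0.07 for all genes, with 10 of 14 values negative, beside 4235 of 9567, and 5 (35.7%) had an unadjusted p under 0.05, beside 25.5%.

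Tfeb, which is controlled largely through its location in the cell, was at 2.84 (DMSO 5) over 5.58 to 9.74 CPM (DMSO 2) in DMSO lines and 0 (C3) over 5.46 to 14.7 CPM (H1) in resistant lines (log2 fold change 0.06, SE 0.326, adjusted p = 0.930 by edgeR's quasi-likelihood test). Tfe3, its relative, was at 0 over 2.06 to 4.66 CPM and 0 over 3.21 to 10.2 CPM (log2 fold change 0.65, SE 0.522, adjusted p = 0.447). The ranges overlapped for both, with 3 resistant lines above and 2 below all DMSO lines for Tfeb and 4 above for Tfe3. Of 27 tested genes of TFEB control, Rag GTPases and autophagy, 1 was called, beside 3.36% of all genes, and 6 (22.2%) had an unadjusted p under 0.05, beside 25.5%. Zkscan3, a repressor of autophagy and lysosome genes, rose from 5.48 over 8.64 to 20.1 CPM to 9.42 over 18.5 to 35.001 CPM (log2 fold change 0.96, SE 0.228, adjusted p = 0.00700 by edgeR's quasi-likelihood test), a call lost in 13 of the 27 fits that left out 1 library. Of the genes whose proteins coat autophagosomes, none passed: Gabarapl1 had 2.47 (adjusted p = 0.0128), Gabarap 0.22, Map1lc3b -0.36 (adjusted p = 0.0343) and Gabarapl2 -0.43 (adjusted p = 0.0930).

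The CLEAR letters were common in the promoters and did not separate the members by fold change. A promoter window of 300 bases was found for 30 of the 35 members, in 35 windows, the 5 others being M6pr, Ctsb, Ctsh, Npc1 and Atp6v1h. CACGTG, which reads the same on both strands, was in 11 of the 35 windows (31.4%), beside 7.15% of 32851 mouse windows and 10.7% of the windows of genes tested here. The longer TCACGTGA, every copy of which contains CACGTG, was in 5 (14.3%), those of Atp6v0d1, Ctsa, Ctsd, Gla and Mcoln1, beside 0.974% and 2.12%. The median log2 fold change was 0.12 for the 9 tested members with CACGTG, 0.06 for the 17 with a window but no CACGTG and -0.11 for the 5 with TCACGTGA. The windows of Lrpap1 and Idua, the members called, held neither.

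Npc2, which hands cholesterol to the lysosomal membrane, had 456 over 774 to 1149.7 CPM in DMSO lines and 436 over 613 to 1186 CPM in resistant lines (log2 fold change -0.06, SE 0.182). Its partner Npc1 was too low to test, with 209 counts in all libraries. Psap, the precursor of the saposins that present lipids to the hydrolases, had 219 over 272 to 410 and 219 over 329 to 551 CPM (log2 fold change 0.31, SE 0.140, adjusted p = 0.155). Cd63, a tetraspanin of late endosomes, had 7 counts in all 30 libraries, so a difference was not detectable at this depth.

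Further lists of lysosome genes are given beside the 3.36% of all genes that were called and the 25.5% with an unadjusted p under 0.05. Of 28 further soluble enzymes tested, 0 were called by edgeR's quasi-likelihood test (2 at an unadjusted p under 0.05), with a median log2 fold change of 0.08. Of 27 further membrane proteins, 0 were called (7 at an unadjusted p under 0.05), with a median of 0.21.

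The resistant lines differed more among themselves than the DMSO lines did, for members as for other genes. The SD of log2 CPM was larger in the resistant lines for 26 of 30 members (86.7%), beside 89.1% of all tested genes, with a median SD of 0.67 against 0.44. For no member did the ranges of the groups fail to overlap, beside 14 of all tested genes (0.146%). In bulk libraries of this kind, fewer cells that express a gene and less of its RNA per cell cannot be told apart.

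**Figure D5:**
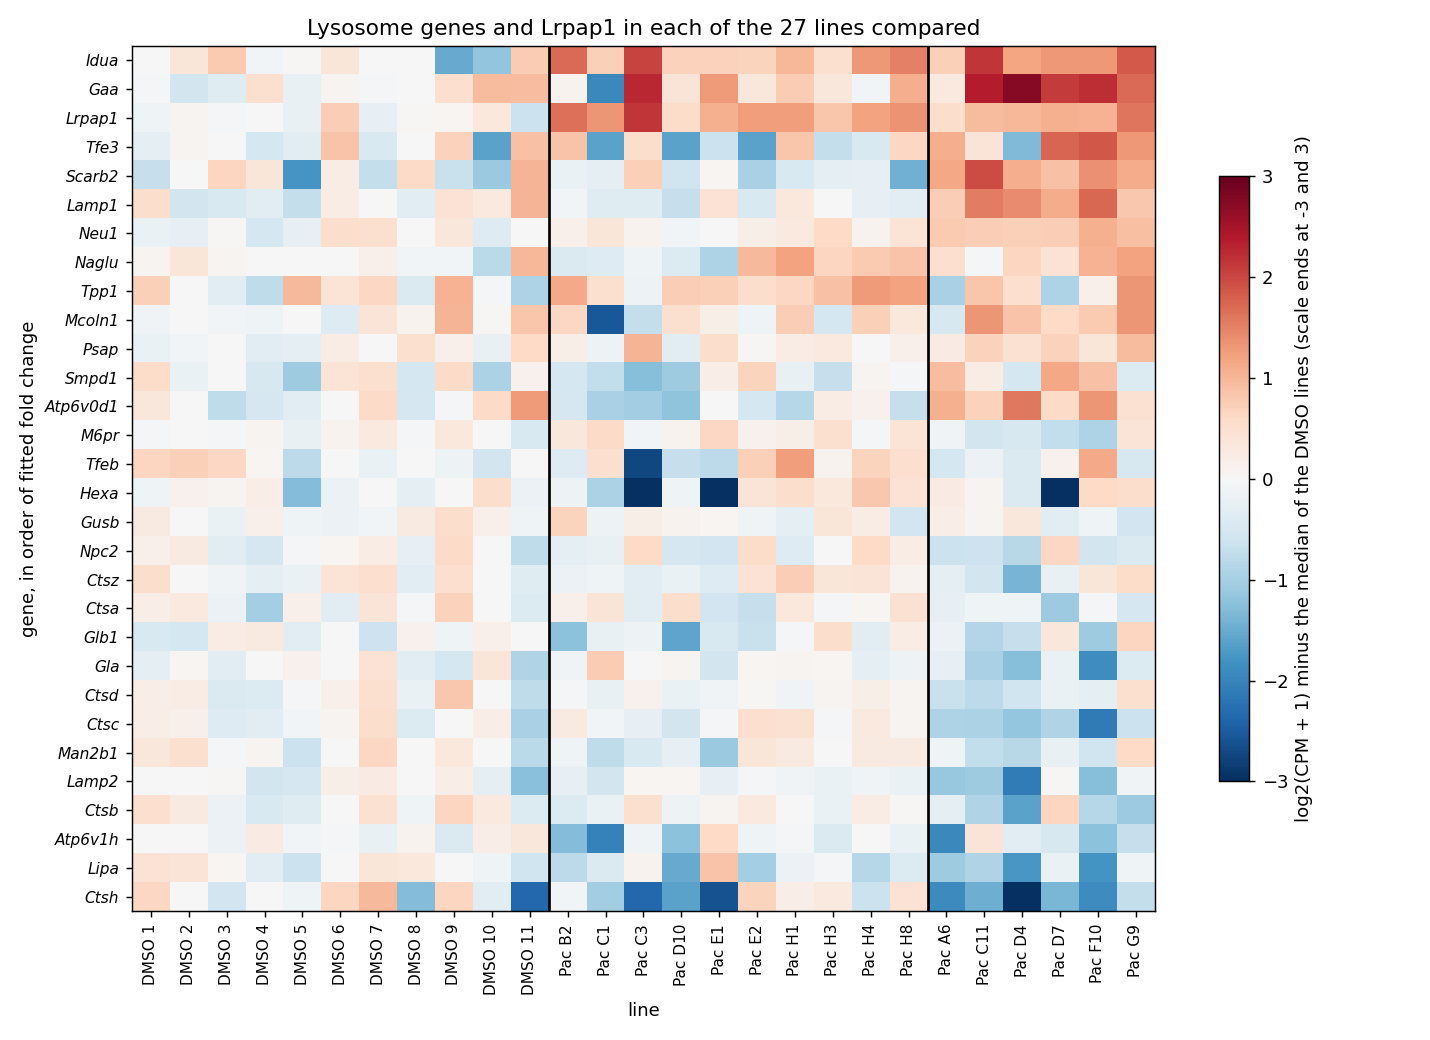
The 30 tested members (rows, in order of fitted fold change) in the 27 lines compared, as log2(CPM + 1) minus the median of the DMSO lines; black lines divide DMSO lines, the 10 resistant lines and the 6 resistant lines set apart on the first principal component. Lrpap1 and Idua are raised across both resistant blocks, Hexa is nearly absent from Pac C3, Pac E1 and Pac D7, and Lamp1, Scarb2 and Atp6v0d1 are raised in the right block and in DMSO 11.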

How the data were processed

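RNA of 30 lines was sequenced by the authors as 3′-end digital gene expression libraries, barcoded in 2 subpools. Which line was in which subpool, whether molecular identifiers were collapsed and whether counting used strand are not given in the sources used here. The authors aligned reads to GRCm38 (mm10) with STAR 2.5.1b and deposited whole-number counts per gene, without normalization. Symbols and positions are those of gencode M21, while the study names M25, and 55141 of 55401 identifiers had a symbol. Of the table's value columns, 0 were left unused.

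Groups follow the labels, and 3 libraries whose labels are in doubt were kept out of the main comparison. The deposited counts were filtered with filterByExpr, scaled by TMM and tested by the quasi-likelihood F test of edgeR 4.0.16 (R 4.3.3), with Benjamini-Hochberg adjustment over all 9567 genes kept and a threshold of 0.01. The filter asked for 2.44 CPM in at least 11 libraries. The standard error of a log2 fold change is its size divided by the square root of F, and log2 CPM used a prior count of 2. Normalized CPM were computed with TMM factors over all 30 libraries. Members and gene lists were chosen with earlier results of these data known. Named in full are members called in the main comparison or with all 29 labelled lines, Lrpap1, M6pr, Lamp1, Ctsd, Tfeb and Tfe3, called genes of the other lists, and tested genes within 0.5 Mb of Lrpap1. Gaa, Neu1, Hexa, Ctsl, other members given by line, Hgsnat, the autophagosome coat genes and genes beside Hexa were singled out after their values were seen. The fit was tested on simulated data: of tested genes changed 2-fold 49 of 95 were recovered, of those changed 4-fold 87 of 93, with 1 false call among 9245 unchanged genes, in a run on 9433 genes. The simulation gave both groups the same spread for each gene. In the real lines the SD was larger in the resistant group for 89.1% of tested genes, so these rates need not hold there. The alternatives tried were DESeq2 1.42.0, the likelihood ratio test, RLE or no factors, no filter, thinning every library to 480919 counts, log10 total as a covariate, other placings of the 3 libraries, a threshold of 0.05, and leaving out libraries. Scaling the line levels of 5 members without TMM factors was added after the data were seen. The subpool batch was not modelled. The summary of the list of receptors bound by RAP is not reported here. P-values measure the spread between separately cultured lines, and standard errors hold that spread and counting error only; reads without collapsed identifiers are not independent molecules.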

Additional observations from a re-analysis of the deposited data

Results flagged for a closer look

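Values in the 3 libraries kept out of the comparison exceeded all 11 DMSO lines for 3 genes called higher in the main comparison. Lrpap1 was at 56.2 CPM in the library labelled Pac H9, above the 49.6 CPM of the highest DMSO line. Idua was at 15.2 CPM in the library labelled DMSO 12, above 8.84 CPM. Igf2r was at 3.62 CPM in the library labelled Pac H9 and at 2.38 CPM in that labelled Parental, from 4 counts each, above 0.617 CPM. What these libraries are was not tested.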

How the results depend on the processing

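Of 1102 log2 fold changes of the 30 tested members under alternatives, 1062 kept their direction and their side of the threshold, 34 changed sign, 5 passed the threshold only there (all Gaa) and 1 lost it (Idua with all 29 labelled lines, 1.06, adjusted p = 0.0240). Leaving out 1 library at a time, Lrpap1 ran from 1.14 to 1.32 and Idua from 1.22 to 1.402, both called in all 27 fits, and members called higher from 2 to 3. Members called higher were 1 with all 29 labelled lines and 4 at an adjusted p under 0.05. All genes called higher (lower) were 94 (114) with all 29 labelled lines, 280 (285) with edgeR's likelihood ratio test, 410 (353) with DESeq2, 300 (141) without TMM, 98 (114) after thinning, 272 (219) without the library of each group farthest from its group (DMSO 11 and Pac C1) and 480 (420) at 0.05; leaving out 1 library gave 101 to 227 higher and 116 to 201 lower, with 101, 105 and 104 higher without DMSO 1, DMSO 2 or DMSO 8. The cause was not tested.

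Sign changes concerned members whose log2 fold change was at most 0.12 in size, and none of these values was called: M6pr was -0.00174 with log10 total as a covariate and -0.0179 without the farthest libraries, Ctsa was 0.0101 with all 29 labelled lines and 0.00964 without TMM, and without TMM or after thinning Ctsz was 0.0516 and 0.0133, Gusb 0.0823 and 0.0119, and Npc2 0.0484 and 0.0214. Hexa was -0.0572 with moved labels, -0.00310 with the likelihood ratio test and -0.00281 without a filter. Leaving out 1 library, Gusb ran from -0.0815 to 0.0324, Hexa from -0.0666 to 0.111, Npc2 from -0.116 to 0.0146, Tfeb from -0.0364 to 0.159 and Atp6v0d1 from -0.0168 to 0.313. Atp6ap1 lost its call in 4 of 27 such fits and Zkscan3 in 13 of 27. Igf2r kept its call in the 16 such fits in which it passed the filter, and fell below the filter in the others. With moved labels and after thinning it was not tested either. Because it passes the filter only through the lines where it is high, the calls it kept add no support. The smallest library, Pac C1 with 480919 counts, held 4 counts of Idua and 0 of Tfe3, so such low genes are measured loosely there. Thinned to that depth, 22 members could be tested and Idua could not. No paired analysis was possible because the labels of the paclitaxel resistant lines carry plate positions and no replicate numbers shared with the DMSO lines.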
